A study of Homo sapiens with 8 samples.

Results

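RNA of 10 genes of the ATP-binding cassette (ABC) family was examined in lung cancer cells that had been selected for growth in an FGFR inhibitor. The genes encode multidrug transporters other than ABCB1 and were chosen by name, as ABCC1, ABCC2, ABCC3, ABCC4, ABCC5, ABCC6, ABCC10, ABCG2, ABCA2 and ABCA3. All 10 were found among the 37441 genes of the count table, and 9 of them were among the 18203 genes tested, each of which had 10 or more counts when the 8 libraries were added up. ABCC2 fell below this filter. The study compared the non-small cell lung cancer lines NCI-H1581 and NCI-H1703, both sensitive to FGFR inhibition, with the variants NCI-H1581R and NCI-H1703R derived from them by stepwise exposure to CPL304110, an inhibitor of the FGF receptors. Selection started at 50 nM and ended at 2.5 µM for NCI-H1581R and 5 µM for NCI-H1703R after 4 to 6 months, while the sensitive variants were not selected. All cells were harvested 24 h after fresh medium was given, and the methods do not say whether this medium held the inhibitor, so selection and the presence of the drug cannot be told apart. Each of the 4 variants was represented by 2 replicates from separately seeded dishes, and whether a resistant variant was a single clone is not given in the sources used here. The p-values thus measure the spread between dishes of 1 derived variant.

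ABC transporters use ATP to move substrates across membranes. The ABCC proteins studied here, known as multidrug resistance-associated proteins, mainly carry organic anions, including drugs conjugated to glutathione or glucuronic acid, whereas ABCG2, the breast cancer resistance protein, works as a dimer and exports a wide range of drugs, tyrosine kinase inhibitors among them. ABCA2 and ABCA3 move lipids into intracellular compartments, ABCA3 being the transporter that fills the lamellar bodies of surfactant-producing lung cells, and both have been linked to drug sequestration.

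The promoters of ABCG2, ABCC10, ABCA2 and ABCA3 are shown because the results turn on these genes: ABCG2 rose in NCI-H1581R, ABCA3 fell in NCI-H1703R, and the change of ABCC10 and ABCA2 differed between the cell lines. Each sequence is the stretch of 250 bases before the transcription start site (RefSeq, build GRCh38.p14, start site nearest the canonical start), written 5′ to 3′ on the strand of the gene. Capitals mark matches, on either strand, to the antioxidant response element TGACNNNGC, to the xenobiotic response element core GCGTG and to the TATA box TATAAA. Start sites were matched for 8 of the 10 genes, all but ABCC1 and ABCC3.
ABCG2, chr4:88158640-88158889, minus strand: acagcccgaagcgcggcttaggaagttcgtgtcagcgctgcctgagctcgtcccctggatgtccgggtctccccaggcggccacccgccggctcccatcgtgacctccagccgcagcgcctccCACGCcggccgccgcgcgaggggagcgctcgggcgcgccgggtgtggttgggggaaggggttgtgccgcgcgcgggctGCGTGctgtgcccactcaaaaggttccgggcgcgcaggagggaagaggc
ABCC10, chr6:43427291-43427540, plus strand: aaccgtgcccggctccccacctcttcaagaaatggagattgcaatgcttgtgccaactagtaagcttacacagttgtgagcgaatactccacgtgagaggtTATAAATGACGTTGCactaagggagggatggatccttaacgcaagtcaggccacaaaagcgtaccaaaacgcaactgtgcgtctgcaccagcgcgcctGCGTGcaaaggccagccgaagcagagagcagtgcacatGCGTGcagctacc
ABCA2, chr9:137028238-137028487, minus strand: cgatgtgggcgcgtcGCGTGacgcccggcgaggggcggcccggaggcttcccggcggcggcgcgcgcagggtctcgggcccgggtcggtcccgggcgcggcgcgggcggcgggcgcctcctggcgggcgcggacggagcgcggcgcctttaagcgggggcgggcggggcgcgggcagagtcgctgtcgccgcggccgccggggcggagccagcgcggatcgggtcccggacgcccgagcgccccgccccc
ABCA3, chr16:2340729-2340978, minus strand: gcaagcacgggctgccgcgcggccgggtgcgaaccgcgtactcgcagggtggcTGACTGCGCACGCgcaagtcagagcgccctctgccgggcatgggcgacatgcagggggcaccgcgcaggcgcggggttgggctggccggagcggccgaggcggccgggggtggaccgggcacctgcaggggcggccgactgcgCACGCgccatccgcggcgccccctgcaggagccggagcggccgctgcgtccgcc
The ABCG2 promoter held 2 xenobiotic response element cores and no match to the other motifs in capitals. The ABCC10 promoter held 1 antioxidant response element directly after its TATA box, and 2 xenobiotic response element cores. The ABCA3 promoter held 1 antioxidant response element, which overlaps the first of its 2 xenobiotic response element cores, and the ABCA2 promoter held 1 such core together with 6 GC boxes (GGGCGG, not in capitals). Over all 27303 promoters of this length, with 1 per gene, 11.0% held the antioxidant response element, 31.9% the xenobiotic response element core, 11.1% the TATA box and 42.3% the GC box. The letters are a description of these windows and not of binding. By base composition, the promoters of ABCG2, ABCA2 and ABCA3 were rich in CpG, with observed over expected ratios of 0.948, 1.20 and 0.979, and that of ABCC10 had a ratio of 0.78, beside a median of 0.556 over all promoters.

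The libraries held 33800389 to 40031710 counts, so that 3 counts, the least taken here as showing a gene, amounted to 0.0749 to 0.0897 CPM, the count scaled to the size of its library. Such limits cover counting error only. Some defining markers of other cell types were at or near 0, since SFTPC of surfactant-producing cells and CD3E of T cells had 0 counts in all libraries, and CDH5 of endothelial cells reached at most 0.0264 CPM. Of the lung epithelial keratins, KRT7, KRT8 and KRT19 reached at most 7.27 CPM in any library. KRT18 stood at 64.3 to 65.4 CPM in NCI-H1703 and at no more than 2.88 CPM in the other variants. The 6 fibroblast genes (COL1A1, COL1A2, COL3A1, PDGFRA, PDGFRB and DCN) differed widely in level. COL3A1 (4186 to 4244 CPM) and COL1A2 (2046 to 2325 CPM) led in NCI-H1581. PDGFRA led in NCI-H1703 (1211 to 1301 CPM), where the others reached at most 3.62 CPM. PDGFRB did not exceed 6.97 CPM in any library. The summed level of the 6 genes was 6396 to 6629 CPM in NCI-H1581 and 3131 to 3278 CPM in NCI-H1581R. It was 1217 to 1308 CPM in NCI-H1703 and 1084 to 1111 CPM in NCI-H1703R. In NCI-H1581R, 4 of the 6 were lower (COL1A1, COL1A2, COL3A1 and DCN), while COL1A1 was higher in NCI-H1703R. Of 4 squamous markers tested, TP63 and SOX2 were higher in NCI-H1581R, where the summed level of the list was 34.4 to 39.0 CPM against 7.54 to 8.01 CPM, and SOX2 was lower in NCI-H1703R. Of 6 epithelial markers, EPCAM was lower in NCI-H1581R and KRT18 in NCI-H1703R, and of 3 alveolar markers NKX2-1 was higher in NCI-H1581R (40.1 to 59.5 CPM) than in NCI-H1581 (13.6 to 15.0 CPM). The lysosomal and macrophage gene CD68, 1 of 4 immune markers tested, was lower in NCI-H1581R (14.7 to 18.6 CPM against 77.2 to 96.8 CPM) and higher in NCI-H1703R (43.1 to 55.0 CPM against 20.2 to 22.4 CPM), and the endothelial list summed to at most 0.449 CPM in any library. Whether these shifts play a part in the values of the transporters was not tested.

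Levels were compared between genes only as CPM per kilobase of the canonical transcript. In the sensitive variants, 5 members made up nearly all of the transporter RNA, namely ABCC10, ABCA3, ABCC5, ABCA2 and ABCC1, with 7.49 to 16.8 CPM per kb in NCI-H1581 and 6.28 to 9.32 CPM per kb in NCI-H1703. The other 5 lay below 1 CPM per kb in both sensitive lines. In NCI-H1581 the order was led by ABCC10 (16.8 ± 2.14 CPM per kb, SD, n = 2) and ABCA3 (15.2 ± 0.0224), whose nearest replicates stood at 15.3 and 15.2 CPM per kb, so that their order did not exceed the spread of ABCC10. In NCI-H1703 the order was led by ABCC1 (9.32 ± 0.227 CPM per kb), whose replicates lay above those of ABCC5. ABCC5, ABCC10, ABCA2 and ABCA3 followed in this order with each overlapping the next, although ABCC5 lay above ABCA3. These orders depend on the length used. With the length of all exons merged, ABCA3 ranked 2 and ABCC5 ranked 5 in NCI-H1703, and ABCA3 ranked 1 in NCI-H1581. In NCI-H1703R the leading members ABCC1, ABCC10, ABCA2 and ABCC5 overlapped from each to the next, and ABCA3 lay below them at 4.01 ± 0.324 CPM per kb.

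**Figure D1:**
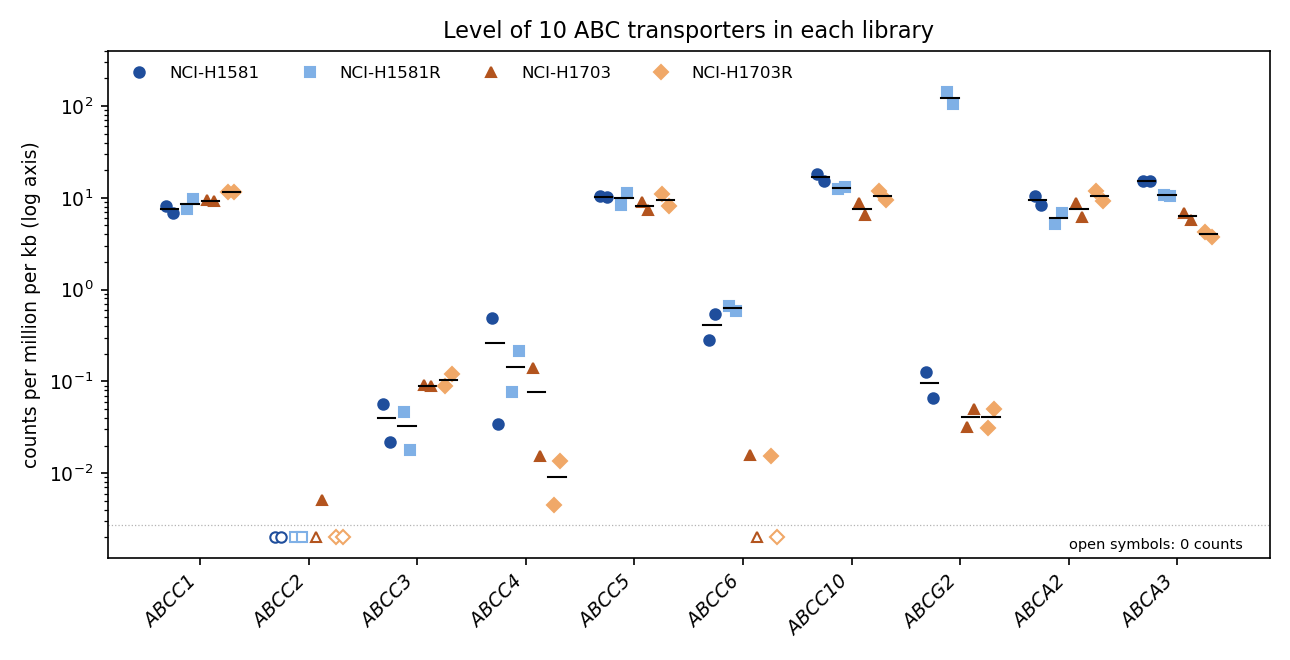
Level of each of the 10 transporters in CPM per kb of transcript (log axis) in the 8 libraries, with 1 symbol per library and a black line at the mean of the 2 replicates where both were above 0. ABCG2 in NCI-H1581R (105 and 142 CPM per kb) lies above every other value, and ABCC2, with open symbols for 0 counts, had a count in a single library.

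ABCG2 showed the largest difference of all members. The gene (ENSG00000118777, chr4:88090150-88231628, minus strand, 16 exons, a protein of 655 residues) had 18 and 11 counts in the replicates of NCI-H1581 and 22436 and 17312 counts in those of NCI-H1581R. In NCI-H1703 it had 5 and 7 counts and in NCI-H1703R 5 and 8. The transporter was therefore abundant in both replicates of NCI-H1581R and scarce in the other 6 libraries, and the resistant variant of NCI-H1703 could not be separated from its parental line. As a level, ABCG2 stood at 0.404 ± 0.184 CPM in NCI-H1581 and 518 ± 111 CPM in NCI-H1581R (SD, n = 2). The log2 fold change was 10.36 ± 0.37 (SE), a ratio of 1310, with an adjusted p of 4.16e-05 (edgeR's quasi-likelihood test, Benjamini-Hochberg over all genes tested). From the summed counts, 39748 against 29, the ratio was 1313 with an exact counting interval of 914 to 1960 (95%). When the 18203 genes tested were ordered from the highest log2 fold change in this line, ABCG2 was in place 22. In bulk RNA, a larger share of cells with the transcript and more of it per cell cannot be told apart. In NCI-H1703R the log2 fold change of ABCG2 was 0.04 ± 0.74 (adjusted p = 1), and the difference between the lines, -10.34 ± 1.48 on the log2 scale, passed the test (adjusted p = 0.0031).

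Per kilobase, ABCG2 was the most abundant member in NCI-H1581R at 123 ± 26.3 CPM per kb, followed by ABCC10 at 12.8 ± 0.410. It supplied 66.7% and 75.8% of the summed level of the 10 transporters in the 2 replicates of NCI-H1581R, a mean of 71.2%, whereas the mean share was 0.158% in NCI-H1581, and 0.109% and 0.0907% in NCI-H1703 and its resistant variant. The summed level was 59.9 ± 5.09 CPM per kb in NCI-H1581 and 172 ± 21.2 in NCI-H1581R, and without ABCG2 it was 59.8 ± 5.05 and 48.8 ± 5.03. In the other line it was 39.0 ± 5.73 in NCI-H1703 and 46.3 ± 5.74 in NCI-H1703R. ABCB1, the drug exporter encoded on chromosome 7, had the same distribution over the variants, with 8585 and 9573 counts in NCI-H1581R and at most 4 counts in any other library. ABCG2 thus exceeded ABCB1 per kilobase in NCI-H1581R, since ABCB1 reached 45.3 ± 2.05 CPM per kb and the replicate ranges did not overlap.

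**Figure D2:**
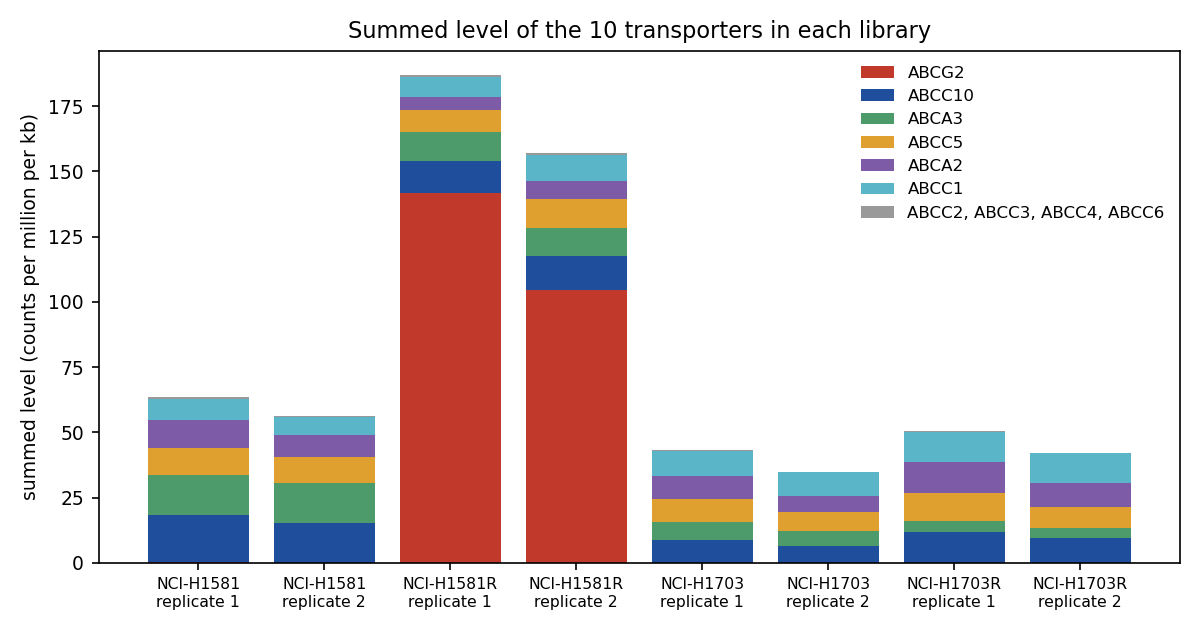
Summed level of the 10 transporters in CPM per kb of transcript in each of the 8 libraries, with the members stacked by colour. The red ABCG2 segment makes up 66.7% and 75.8% of the bars of NCI-H1581R and is too thin to see in the other libraries.

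The genes around ABCG2 were examined to see whether its difference stood alone among its near neighbours on chromosome 4. Of the 10 nearest tested protein-coding genes, with 5 on each side, 5 were higher in NCI-H1581R than in NCI-H1581 (adjusted p under 0.1), while 7.63% of all genes tested were called higher. Their median log2 fold change was 0.61 beside 0.04 over all genes tested. Towards lower coordinates, SPP1, which encodes the secreted protein osteopontin, had 0 and 0 counts in NCI-H1581 and 352 and 240 in NCI-H1581R, which was at least 189-fold higher against 3 counts over the group. PKD2, an ion channel gene, had 221 and 221 counts and 737 and 1024 (log2 fold change 1.93 ± 0.25, adjusted p = 0.00463). Towards higher coordinates, PPM1K, a mitochondrial phosphatase gene, had 96 and 93 counts and 243 and 465 (1.84 ± 0.39, adjusted p = 0.0328). HERC5, a ligase for the ubiquitin-like protein ISG15, had 922 and 1133 counts and 2303 and 2240 (1.09 ± 0.16, adjusted p = 0.00893), and PYURF had 1714 and 2257 counts and 4265 and 2938 (0.82 ± 0.23, adjusted p = 0.0805). Both replicates of NCI-H1581R lay above both of NCI-H1581 in all 5 genes, which were picked by their call in this same comparison. Over all genes tested, 50.6% had no overlap between these variants. PYURF shares its position with PIGY, so that reads may have been split between them.

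The 5 genes start between -0.115 Mb and 0.431 Mb from the start coordinate of ABCG2. Within this stretch HERC6 (0.21 ± 0.28, adjusted p = 0.72) and PIGY (0.40 ± 0.34, adjusted p = 0.546) did not pass. Farther out, NUDT9 was at -0.45 ± 0.19 (adjusted p = 0.216), and SPARCL1 and IBSP had at most 4 counts in any library of NCI-H1581 and NCI-H1581R. With 10 genes on each side the number called higher was again 5, now of 20, and the median was 0.13. In NCI-H1703R, 1 of the same 10 genes passed the test, HERC5, which fell by 0.80 on the log2 scale (adjusted p = 0.0194). Blocking on the replicate number added 3 genes that were higher, NUDT9, IBSP and PKD2. The change differed between the lines for PKD2 (-1.55 ± 0.27, adjusted p = 0.00848), PPM1K (-2.37 ± 0.69, adjusted p = 0.0667) and HERC5 (-1.92 ± 0.18, adjusted p = 0.000383), and for SPP1 and PYURF this test did not pass (adjusted p = 0.216 and 0.159). Copy number was not analysed here.

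**Figure D3:**
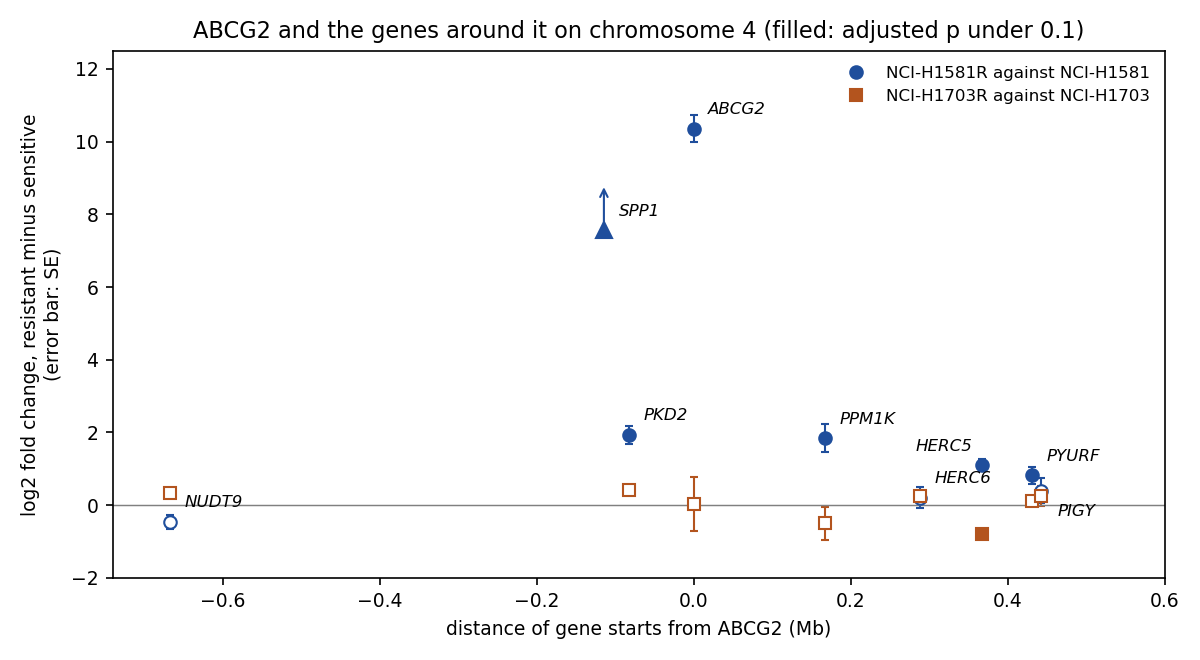
Log2 fold change with resistance (vertical, error bars SE) of ABCG2 and of 8 genes around it against the distance of their start coordinates from that of ABCG2 in Mb (horizontal), for NCI-H1581R (circles) and NCI-H1703R (squares), filled where the adjusted p was under 0.1. The triangle with an arrow is the lower bound for SPP1 (189-fold), which is not drawn for NCI-H1703R, and SPARCL1 and IBSP are left out for their low counts. In NCI-H1581R, PKD2 (1.93), PPM1K (1.84), HERC5 (1.09) and PYURF (0.82) lie above 0 beside ABCG2 at 10.36.

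In the comparison of NCI-H1581R with NCI-H1581, ABCG2 was the only one of the 9 members tested that passed (edgeR, adjusted p under 0.1), while 15.1% of all genes tested were called. The median log2 fold change of the 9 members was -0.24, against 0.04 over all genes. ABCA3 had 3387 and 4017 counts in NCI-H1581 and 2691 and 2743 in NCI-H1581R. Both resistant replicates lay below both sensitive ones, which was also true of ABCA2 and ABCC10, but 50.6% of all genes had no overlap between the groups. The log2 fold change of ABCA3 was -0.50 ± 0.15 with an adjusted p of 0.101, just outside the threshold. DESeq2 gave an adjusted p of 0.0206, and edgeR gave 0.0251 when all 8 libraries were fitted together. By edgeR, ABCA3 also passed with RLE normalisation (0.0905) and with at least 10 counts in every library (0.0719). It did not pass with the replicate block (0.104) or without the filter on low counts (0.135). In such a joint fit, the log2 fold change of ABCA3 was -0.53 without replicate 1 of NCI-H1581R and -0.49 without replicate 2. ABCC1 and ABCC5 overlapped between the variants, ABCC1 being at 0.22 ± 0.20 on the log2 scale (adjusted p = 0.571) and ABCC5 at -0.04 ± 0.20 (adjusted p = 0.949). Leaving out replicate 1 of NCI-H1581R, in a joint fit of the remaining libraries, took ABCC1 to 0.38, and leaving out replicate 2 took it to 0.016.

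In NCI-H1703R, 2 of the 9 members passed the test against NCI-H1703, ABCC1 upwards and ABCA3 downwards, while 14.7% of all genes were called. ABCC1, the first multidrug resistance-associated protein, is encoded at chr16:15949138-16143257 (ENSG00000103222, plus strand, 31 exons). It had 2281 and 1992 counts in NCI-H1703 and 2816 and 2833 in NCI-H1703R, or 60.6 ± 1.48 and 74.6 ± 0.232 CPM (SD, n = 2). Both resistant replicates lay above both sensitive ones, but 51.3% of all genes tested had no overlap between these variants. The log2 fold change of ABCC1 was 0.33 ± 0.085, a ratio of 1.26 (adjusted p = 0.0731). By edgeR, this call was lost when all 8 libraries were fitted together (adjusted p = 0.349) and without the filter on low counts (0.105). Leaving out a library of the line, in a joint fit of those remaining, gave ABCC1 0.30 to 0.32 on the log2 scale. The call was not kept in these fits, which also change the model. ABCA3 (ENSG00000167972, chr16:2275881-2340746, minus strand, 33 exons) had 1661 and 1270 counts in NCI-H1703 and 1058 and 945 in NCI-H1703R. Its level fell from 41.4 ± 4.89 to 26.5 ± 2.14 CPM, without overlap, a log2 fold change of -0.62 ± 0.13 (adjusted p = 0.0394). With all 8 libraries fitted together by edgeR, the call of ABCA3 held (adjusted p = 0.0245). With a library of the line left out of such a joint fit, its log2 fold change ranged from -0.73 to -0.52. The call was lost in most of these fits, which also change the model.

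The count of calls in NCI-H1703R depended on how the replicates were paired. With the replicate number as a block, 6 of the 9 members passed the test, 4 higher and 2 lower in NCI-H1703R, while the share of all genes called rose as well, to 34.9%. Of these, ABCC10 was at 0.52 (adjusted p = 0.000807), ABCA2 at 0.54 (0.000388), ABCC5 at 0.26 (0.0359) and ABCC1 at 0.33 (0.00565) on the log2 scale, and ABCA3 at -0.61 (0.000492) and ABCC4 at -2.96 (0.0526) were lower. In each replicate pair of NCI-H1703 and NCI-H1703R, the counts of ABCC10, ABCA2 and ABCC5 were higher in the resistant library, and in both variants replicate 1 lay above replicate 2.

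**Figure D4:**
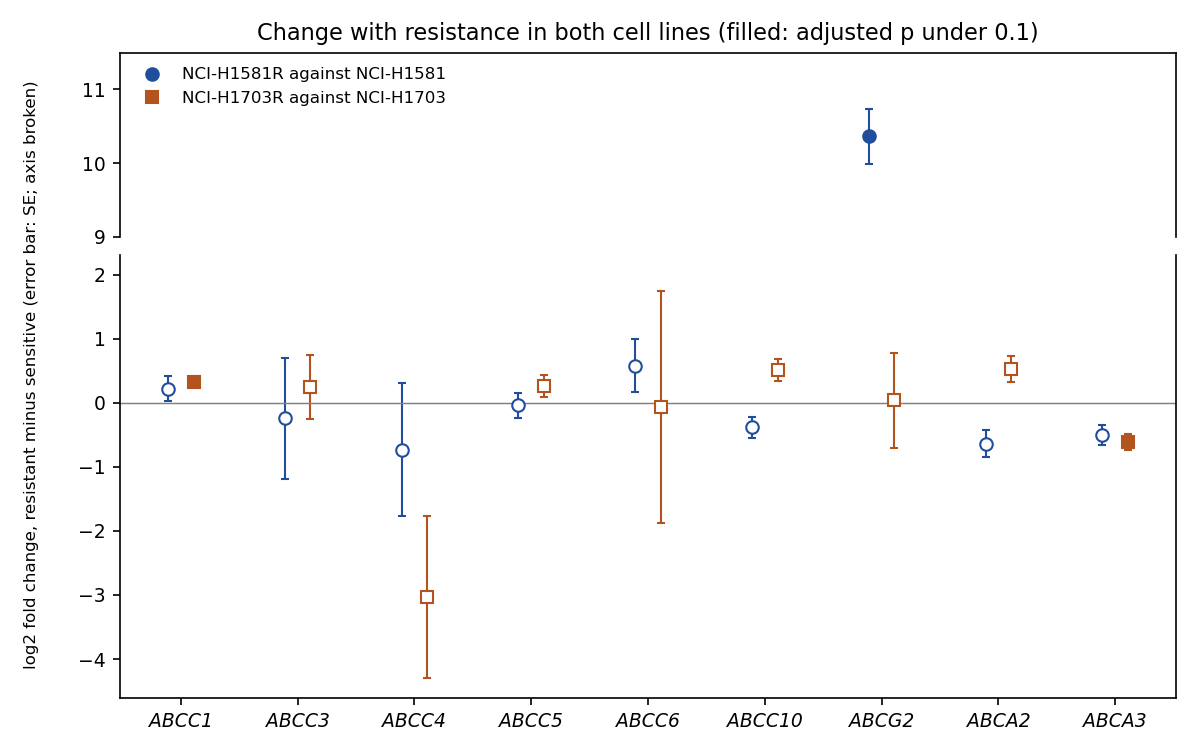
Log2 fold change, resistant minus sensitive, of the 9 transporters tested (error bars SE; vertical axis broken) in NCI-H1581R (circles) and NCI-H1703R (squares), filled where the adjusted p was under 0.1 without the replicate block. ABCG2 in NCI-H1581R stands at 10.36, ABCC1 at 0.33 and ABCA3 at -0.62 are filled in NCI-H1703R, and ABCC10 and ABCA2 lie on opposite sides of 0 in the 2 lines.

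ABCA2 and ABCC10 had changes of opposite sign in the 2 cell lines, and for both the difference between the lines passed the test. In this interaction test 3 of the 9 members were called, ABCG2, ABCA2 and ABCC10, while 15.4% of all genes were. ABCA2 (ENSG00000107331, chr9:137007234-137028915, minus strand, 49 exons), a transporter of late endosomes and lysosomes, had 2889 and 2677 counts in NCI-H1581 and 1563 and 2185 in NCI-H1581R. In NCI-H1703 it had 2642 and 1662 counts and in NCI-H1703R 3633 and 2823. Both replicates of NCI-H1581R lay below those of its parental line, and both of NCI-H1703R above those of theirs. The log2 fold changes were -0.64 ± 0.21 (adjusted p = 0.128) and 0.53 ± 0.20 (adjusted p = 0.181), neither of which passed by edgeR without the block. The change in NCI-H1703R passed with the block, as given above, and DESeq2 called both (adjusted p = 0.042 and 0.0616). Their difference was 1.14 ± 0.33 (adjusted p = 0.0651). With 1 library left out, in a joint fit of those remaining, the change of ABCA2 ranged from 0.29 to 0.78 in NCI-H1703R. In NCI-H1581R it ranged from -0.87 to -0.46. The interaction of ABCA2 did not pass without replicate 1 of NCI-H1581, replicate 1 of NCI-H1581R, replicate 2 of NCI-H1703 or replicate 1 of NCI-H1703R.

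ABCC10 (ENSG00000124574, chr6:43427366-43450427, plus strand, 22 exons), an exporter of glucuronides and of several anticancer drugs, had 3107 and 3082 counts in NCI-H1581 and 2368 and 2592 in NCI-H1581R. In NCI-H1703 it had 1619 and 1093 counts and in NCI-H1703R 2237 and 1795. As with ABCA2, the variants did not overlap within either line, NCI-H1581R being lower and NCI-H1703R higher than its parental line, but 50.6% and 51.3% of all genes tested had no overlap in these comparisons. The log2 fold changes were -0.38 ± 0.17 (adjusted p = 0.226) and 0.51 ± 0.18 (adjusted p = 0.146), and their difference was 0.87 ± 0.25 (adjusted p = 0.0684). With 1 library left out, the value in NCI-H1703R ranged from 0.31 to 0.70, and with the block it passed, as given above. The interaction of ABCC10 did not pass without replicate 1 or 2 of NCI-H1581, replicate 2 of NCI-H1703 or replicate 1 of NCI-H1703R. Of its transcript, 0.918% of the 31-base stretches also occur in DLK2, which overlaps it by 76 bases on the opposite strand.

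The remaining ABCC members did not pass the test with resistance in either line without the block. ABCC5, an exporter of cyclic nucleotides, had 1930 and 1408 counts in NCI-H1703 and 2391 and 1789 in NCI-H1703R, which overlapped (0.26 ± 0.18, adjusted p = 0.44 without the block). ABCC4, which exports cyclic nucleotides and nucleoside analogues, varied strongly between replicates, with 96 and 8 counts in NCI-H1581, 17 and 49 in NCI-H1581R, 30 and 3 in NCI-H1703 and 1 and 3 in NCI-H1703R. Its fold changes could not be told from this spread, and in NCI-H1581R its sign turned without replicate 1 of the sensitive variant. ABCC3, an exporter of bile salts and glucuronides, had 4 to 11 counts per library in NCI-H1581 and NCI-H1581R and 17 to 26 in NCI-H1703 and NCI-H1703R. ABCC2, the canalicular exporter of conjugates, had 1 count in a single library of NCI-H1703 and 0 elsewhere, and a count of 0 allows a level of up to 0.0749 to 0.0897 CPM, depending on the library.

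ABCC6, the gene whose loss causes pseudoxanthoma elasticum, was found at a low level in NCI-H1581 and its resistant variant, with 49 and 111 counts and 127 and 119 counts, and at 3 and 0 counts in each of NCI-H1703 and NCI-H1703R. The variants of NCI-H1581 did not overlap with each other, but the log2 fold change of 0.58 ± 0.41 did not pass (adjusted p = 0.464). Its counts are uncertain, since 19.6% of the 31-base stretches of its transcript also occur in other genes, mostly the pseudogenes ABCC6P1 (19%) and ABCC6P2 (7.28%). For the other members this share was at most 1.66%.

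Between the sensitive lines 62.9% of all genes were called, and of the 9 members 5 passed, a share near that of all genes: ABCC1 was higher in NCI-H1703, and ABCC5, ABCC6, ABCC10 and ABCA3 were higher in NCI-H1581. ABCA3 stood at 100.4 ± 0.148 CPM in NCI-H1581 and 41.4 ± 4.89 CPM in NCI-H1703, a log2 fold change of -1.28 ± 0.11 (adjusted p = 5.23e-05), and ABCC10 at 84.6 ± 10.8 and 38.2 ± 7.83 CPM (-1.14 ± 0.15, adjusted p = 0.00049). For ABCC6 the summed counts were 3 and 160, and the ratio was 50.9-fold lower in NCI-H1703 with a counting interval of 17.1 to 249.6 (adjusted p = 0.00101 by edgeR). By edgeR, the differences of ABCC1 and ABCC5 were small (0.32 ± 0.11, adjusted p = 0.0471, and -0.33 ± 0.12, adjusted p = 0.053). Both calls were lost when all 8 libraries were fitted together (0.118 and 0.199). With a library left out of such a joint fit, ABCC1 ranged from 0.20 to 0.44 and ABCC5 from -0.49 to -0.22, and neither call was regained. With the replicate number as a block, ABCC4 (adjusted p = 0.0218) and ABCA2 (0.0311) were called in addition, both lower in NCI-H1703. Over all 8 libraries ABCA3 and ABCC10 each fell into 4 separate levels, with no overlap between neighbours in their order. From the highest, this order was NCI-H1581, NCI-H1581R, NCI-H1703 and NCI-H1703R for ABCA3. For ABCC10, NCI-H1703R came before NCI-H1703. The share of all genes with 4 separate levels was not counted, while 50.6% to 76.7% had no overlap in the single comparisons.

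The genes whose log2 CPM over the 8 libraries was most like that of each member called in a resistance comparison (ABCG2, ABCA3 and ABCC1) were found among 13375 genes with a mean of at least 1 CPM. As a description over 8 libraries that share their variant, THSD7B (Pearson r = 0.998), SRARP (0.998) and TCEAL7 (0.998) were most like ABCG2. Of these, SRARP reached counts near those of ABCG2, with 19148 and 16234 counts in NCI-H1581R and 2 to 13 counts in the other libraries. Most like ABCA3 were TMEM121B (0.994), ZNF703 (0.994) and VGF (0.994), and VGF had 24280 and 22860 counts in NCI-H1581, 3230 in both replicates of NCI-H1581R and 48 and 49 in NCI-H1703R. Most like ABCC1 were DGKD (0.980), PNRC1 (0.966) and EHHADH (0.963).

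The other genes of drug efflux and detoxification were counted by lists, each to be read beside the 15.1% of all genes called in NCI-H1581R and the 14.7% called in NCI-H1703R in either direction. Among 17 tested ABC exporters outside the 10 members, ABCB1 and ABCA1 were higher in NCI-H1581R, and in NCI-H1703R ABCA1, the cholesterol exporter, fell by 2.02 on the log2 scale (adjusted p = 0.0153). The difference of ABCA1 between the lines passed the interaction test (-7.35 ± 1.01, adjusted p = 0.00164). However, ABCA1 averaged under 1 CPM over the libraries of NCI-H1581 and NCI-H1581R, so the size of this difference rests on low counts in that line. Among organelle and non-transport ABC proteins, ABCE1, a ribosome recycling factor, rose by 0.94 in NCI-H1581R, where ABCB9 was lower at -1.03 (adjusted p = 0.019). ABCD2 was lower in both resistant variants.

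ABCC proteins export conjugates, and the genes that make these were read out next. Of 19 tested genes of glutathione synthesis and conjugation, 1 was higher and 4 lower in NCI-H1581R, with GSTM4, GSTO2, GGT7 and the transferase GSTO1 lower (-1.82 ± 0.26, adjusted p = 0.00711) and GSTA4 higher (0.92 ± 0.22, adjusted p = 0.0468). In NCI-H1703R GCLM, GSR, GSTA4, GSTK1 and GSTZ1, 5 in all, were higher and 1 was lower. GCLM, the regulatory subunit of the enzyme that limits glutathione synthesis, rose from 84.3 ± 3.79 to 132 ± 17.0 CPM (adjusted p = 0.0248), while GSTO2 fell from 32.1 ± 3.63 to 5.02 ± 0.517 CPM (adjusted p = 0.000952). The median log2 fold change of the list was 0.06 in NCI-H1581R and 0.25 in NCI-H1703R. Of 16 genes of glucuronide and sulphate conjugation, SLC35D1, which carries UDP-glucuronic acid into the endoplasmic reticulum, rose with resistance in each line. It went from 15.2 ± 2.85 to 130 ± 12.1 CPM in NCI-H1581R (adjusted p = 0.000313) and from 17.1 ± 0.577 to 24.3 ± 1.06 CPM in NCI-H1703R (adjusted p = 0.0463). PAPSS1, PAPSS2 and SULT1A1 were lower in NCI-H1581R, and PAPSS2 and UGT8 were higher in NCI-H1703R. SULT1A1 has close relatives between which reads may have been split.

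Among 26 tested transcription factors known to act on drug transporter genes, CEBPB (1.10 ± 0.16, adjusted p = 0.00894) and HIF1A (1.04 ± 0.17, adjusted p = 0.0134) rose in NCI-H1581R. In NCI-H1703R, EPAS1, the second hypoxia-inducible factor, fell from 91.8 ± 7.67 to 15.7 ± 2.86 CPM (adjusted p = 0.000942), NR1H2 and YBX1 fell, and PPARA and NFE2L2 rose. Among scaffolds and partners of the transporters, PIM1, a kinase that phosphorylates ABCG2, rose in NCI-H1581R from 17.0 ± 4.07 to 89.5 ± 7.62 CPM (adjusted p = 0.000985), while MVP, the major vault protein, fell by 1.23 on the log2 scale (adjusted p = 0.00821). In NCI-H1703R MVP rose by 0.67 (adjusted p = 0.0104). Of 19 uptake and proton exchange carriers, 2 were higher and 3 lower in NCI-H1581R and 2 higher and 2 lower in NCI-H1703R, with the prostaglandin carrier SLCO2A1 at -3.01 ± 0.20 (adjusted p = 0.00155) in NCI-H1703R. The former were SLC22A18, SLC22A3, SLC29A2, SLC47A1 and SLCO4A1, and the latter SLC31A1, SLC47A1, SLCO2A1 and SLCO4A1. Of 15 sphingolipid and surfactant genes linked to ABCA2 and ABCA3, LAMP1 (-1.62 ± 0.17, adjusted p = 0.00221) and SMPD1 (-0.84 ± 0.21, adjusted p = 0.0581) fell in NCI-H1581R. In NCI-H1703R, SMPD1, ASAH1 and LAMP2 rose, with ASAH1, the acid ceramidase, at 1.84 ± 0.10 (adjusted p = 0.000937), and LPCAT1 and LAMP3 fell. Among the genes of the lists, COL1A1, COL3A1, GSTO2 in NCI-H1581R, GGT7, GSR, GSTA4, GSTK1, SLC22A18, SLC22A3, SLC47A1, ABCD2, PAPSS1, YBX1, NFE2L2, LAMP2, LAMP3 and, in NCI-H1581R, ABCA1 were named after their values were seen.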

How the data were processed

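RNA-seq was performed on 8 libraries of total RNA. Read pairs were assigned to GRCh38 transcripts by the authors with Salmon, and tximport was used to import them. The deposited table holds estimated counts of each gene, given as whole numbers and not normalised. Versions, transcript annotation and strandedness are not given in the sources used here. Samples were grouped by cell line and variant as labelled.

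Genes with at least 10 counts over the 8 libraries were tested with edgeR 4.0.16 in R 4.3.3 (TMM normalisation, quasi-likelihood test, two-sided, Benjamini-Hochberg over all genes, called at an adjusted p under 0.1), on the 4 libraries of each comparison, which leaves 2 residual degrees of freedom. The difference between the lines was an interaction in a fit of all 8 libraries. Standard errors were obtained from edgeR's F, as |log2 fold change| over its square root. CPM values use TMM factors over all 8 libraries. Gene models were taken from GENCODE v44, with lengths from the canonical transcript. As alternatives, DESeq2 1.42.0, RLE normalisation, other filters, a threshold of 0.05, a replicate block, a joint fit and omission of each library were used. Each omission was fitted jointly over all remaining libraries, so that outside the interaction it also changed the model of the main test. Legacy quasi-dispersions and the length of all exons merged were added after seeing the data.

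Per the methods, seeding and harvest were done anew for replicate 2, so same-numbered libraries were taken as pairs within a line. Their deviations from the group means correlated at 0.156 in NCI-H1581 and 0.237 in NCI-H1703 over 9828 genes, and between -0.317 and 0.0327 across the lines. Replicates differed by more than sampling noise (chi-square per degree of freedom of 23.3 to 96.8). On simulated data with 200 changed genes, edgeR recovered 113 in the NCI-H1581 comparison, 109 in the NCI-H1703 comparison and 83 in the interaction. False calls were 18, 17 and 16, over 17859, 17884 and 17854 genes. Changed genes were drawn from those with an expected mean of at least 50 counts. Of the 50 genes changed 1.5-fold in each, edgeR called 2, 2 and 1, so that changes of this size were mostly missed in the simulation. Far fewer genes were changed there than were called in the data, which alters the adjusted p, so these rates do not carry over to the data. DESeq2 made 109, 119 and 74 false calls.

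The 10 transporters and all lists were chosen with earlier results of these data known. Beside the transporters, the text names from each list the 3 called genes with the largest change and a mean of at least 1 CPM, and the 3 genes most like each called transporter. The nearest genes of each transporter were the 5 tested protein-coding genes on each side. Some genes of the lists are not reported here.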

Additional observations from a re-analysis of the deposited data

Results flagged for a closer look

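The change with resistance differed between the cell lines for 3 transporters, by the interaction test of edgeR over all 8 libraries. The value for ABCG2 was -10.34 on the log2 scale (adjusted p = 0.0031), NCI-H1703R minus NCI-H1703 against NCI-H1581R minus NCI-H1581. For ABCA2 it was 1.14 (adjusted p = 0.0651) and for ABCC10 it was 0.87 (adjusted p = 0.0684). Over the alternatives that kept all libraries, the adjusted p of ABCA2 ranged from 0.00458 to 0.0861 and that of ABCC10 from 0.00723 to 0.0714. When 1 library at a time was left out, the adjusted p ranged from 0.00187 to 0.0538 for ABCG2, from 0.0394 to 0.21 for ABCA2 and from 0.0675 to 0.232 for ABCC10.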

How the results depend on the processing

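With 2 replicates per variant, the number of transporters called moved with the processing, and the cause was not tested. Fits with a library left out were joint fits of those remaining. Outside the interaction, their counts therefore mix the omission with the change of model, and are best set beside the joint fit. In NCI-H1581R, ABCG2 alone was called, 2 transporters were called with RLE normalisation and 3 with DESeq2, with at least 10 counts in every library or with all 8 libraries fitted together, and leaving out a library gave 1 to 3. All genes called were 2743, with 1793 at a threshold of 0.05, 4539 in the joint fit and 2790 to 5767 with a library left out. In NCI-H1703R, 2 transporters were called, 1 at the threshold of 0.05, without the filter or in the joint fit, 4 with DESeq2 and 0 to 1 with a library left out. All genes called there were 2683, with 1640 at 0.05, 1730 in the joint fit and 645 to 757 with a library left out. With the replicate block, 6 transporters, 6357 genes and 3 neighbours of ABCG2 (higher) were called in NCI-H1703R, and 1 such neighbour with at least 10 counts in every library. Between the sensitive lines, 5 were called, 3 in the joint fit and 3 to 4 with a library left out. In the interaction, 3 were called, 1 at 0.05 and 1 to 3 with a library left out, and 2803 genes became 1571 to 4141.

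Of the log2 fold changes under an alternative, 385 kept direction and call, 31 lost the call, 21 gained it and 18 reversed. The block turned ABCC6 to 0.028 in NCI-H1703R. Beyond NCI-H1703R, the block changed the call of a transporter only between the sensitive lines (7 called). With a library left out, ABCC3 ranged from -1.07 to 0.53, ABCC4 from -1.73 to 2.08 and ABCC5 from -0.28 to 0.15 in NCI-H1581R. In NCI-H1703R, ABCC3 ranged from -0.025 to 0.42, ABCC6 from -3.77 to 3.67 and ABCG2 from -0.36 to 0.37. Between the sensitive lines ABCC4 ranged from -3.95 to 1.21, and in the interaction ABCC1 from -0.077 to 0.28, ABCC3 from -0.32 to 1.29, ABCC4 from -5.15 to 0.015 and ABCC6 from -4.33 to 3.10. Depth limits ABCC2, ABCC3, ABCC4 and ABCC6, whose counts were too low for small changes to be detected. Of the ranks by level within a variant, taken with no length or with all exons merged, 51 stayed the same and 29 moved.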

Other observations

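Among the 10 genes nearest to ABCA2 on chromosome 9, CLIC3, a chloride channel family gene, and UAP1L1 shared the opposite signs of ABCA2 in the 2 lines. CLIC3 was at -2.41 in NCI-H1581R (adjusted p = 0.0225) and 4.64 in NCI-H1703R (adjusted p = 0.000804) on the log2 scale, and UAP1L1 was at -1.14 (adjusted p = 0.00741) and 1.14 (adjusted p = 0.0719). Of the other 8 neighbours, LCNL1 passed in NCI-H1581R (-2.67, adjusted p = 0.0901, at a mean of 0.171 CPM) and SAPCD2 in NCI-H1703R (-0.61, adjusted p = 0.0195). The difference between the lines passed the interaction test of edgeR for CLIC3 (7.03 ± 0.46, adjusted p = 6.86e-05) and UAP1L1 (2.26 ± 0.37, adjusted p = 0.00669), and it did not for LCNL1 (adjusted p = 0.626) and SAPCD2 (adjusted p = 0.177). These genes were named after their values were seen.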
